A study of Mus musculus with 8 samples.

Results

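The aminoacyl-tRNA synthetases of the mouse ileum, the last stretch of the small intestine, were followed through 36 genes, 20 for cytosolic and 16 for mitochondrial enzymes. The genes were taken by name among 35715 names on an Agilent whole-genome array, and each was represented by its brightest detected probe. A total of 44 probes carried these names, and 42 of them passed the detection filter, which asked for a signal well above background on at least 4 of 8 arrays. That left 35 of the 36 genes among 21362 tested. The exception was Nars2, the mitochondrial asparagine enzyme, whose only probe was not well above background on any array.

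The 8 arrays are labelled as female mice of the knock-in strain Rosa26rtTA/+, Hprt Myc-Tnk1tg. Mice of this strain carry the doxycycline-dependent transcription activator rtTA at Rosa26 and a Myc-tagged gene for TNK1, a non-receptor tyrosine kinase, at the Hprt locus. Doxycycline arrays (n = 4) followed an intraperitoneal injection of 50 µg per g body weight in 100 µl, and saline arrays (n = 4) an injection of 100 µl of 0.9% NaCl, with tissue taken 24 hours later in both groups. The comparison asks what TNK1 induction does to the gut. Both groups share the strain per the labels, although the titles and the source name of the saline samples say WT. If the saline mice were wild type, genotype and treatment could not be told apart. No group received doxycycline without the transgene, so drug and kinase cannot be told apart. The labels do not name a separate animal for each array, and p-values here speak of the spread among arrays, which may be technical.

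An aminoacyl-tRNA synthetase joins an amino acid to its matching tRNA and thereby sets which amino acid a codon receives. The cytosol and the mitochondrion mostly use separate enzymes encoded by separate nuclear genes, while Gars and Kars serve both compartments. Several cytosolic enzymes sit together in the multisynthetase complex, and when amino acids run short the transcription factor ATF4 is known to raise many cytosolic synthetase genes through short amino acid response elements.

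The labels were checked first. Tnk1 signal on the probe toward the 5′ end of the gene was 6.92-fold higher with doxycycline (0.64 ± 0.23 on doxycycline arrays, -2.15 ± 0.40 on saline arrays, SD, n = 4 each), and Hprt, the gene that holds the insertion, was 64.6-fold higher. The second Tnk1 probe had a log2 difference of -0.45 (limma adjusted p = 0.143). Over all genes tested, limma called 1268 higher and 1687 lower with doxycycline at an adjusted p under 0.05, which is 13.8% in either direction, 5.94% higher and 7.9% lower. Well above background were 54.7% to 57.0% of probes on the doxycycline arrays and 39.6% to 43.1% on the saline arrays. All arrays lay on 1 slide, doxycycline in row 1 and saline in row 2, so row and treatment cannot be told apart. All 10 ileal enterocyte markers were tested and limma called 0 (2 higher at an unadjusted p under 0.05). Levels throughout are log2 processed signal minus the 75th percentile of the same array, and differences are doxycycline minus saline on that log2 scale.

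Of the 35 synthetase genes tested, 1 rose and 0 fell, against 5.94% and 7.9% of all genes. At an unadjusted p under 0.05 limma gave 3 higher (14.6% of all genes) and 4 lower (16.8% of all genes). The gene that rose was Vars, which charges valine tRNA in the cytosol. Cytosolic genes lay mostly above 0, with positive differences in 18 of 20 and a median of 0.23, and mitochondrial genes mostly below it, with negative differences in 11 of 15 and a median of -0.29. Over all genes tested the median was 0.016 and 51.3% were positive. The sets differed in brightness, with median levels of 3.07 (cytosolic), 0.90 (mitochondrial) and 0.39 (all genes). Yars, among the 18 and among the 3 higher at an unadjusted p, was well above background on 0 of 4 saline arrays. It thus entered the test through the doxycycline arrays. A filter on all 8 arrays left out Yars and Mars2. With it 17 of 19 cytosolic differences were positive (median 0.21) and 11 of 14 mitochondrial ones negative (median -0.33). The median of all genes was then -0.048. Under the other scalings (quantile, median and normexp) 18 of 20 cytosolic differences were positive and 9 or 10 of 15 mitochondrial ones negative. These were not all the same genes, since Sars, Yars, Iars2, Sars2 and Tars2 changed sign with normexp background, and Iars2 and Tars2 with the other scalings too. In whole tissue, fewer cells of a type and less RNA per cell cannot be told apart.

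The saline arrays 2 and 4 weighed on these counts. Without saline 4, 5 synthetase genes rose (Gars, Hars, Rars, Vars and Wars) and 0 fell, beside 15% of all genes called in either direction. Without saline 2, 1 rose (Vars) and 2 fell (Cars2 and Lars2), beside 14.0% of all genes. The cytosolic median was 0.42 without saline 4 and 0.096 without saline 2, and the mitochondrial median -0.13 and -0.41. Without both arrays limma called 2 genes higher (Vars and Yars), beside 9.91% of all genes in either direction, with medians of 0.31 and -0.29. The call of Yars rests on a saline signal that was not well above background, so it has no firm size or sign.

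**Figure D1:**
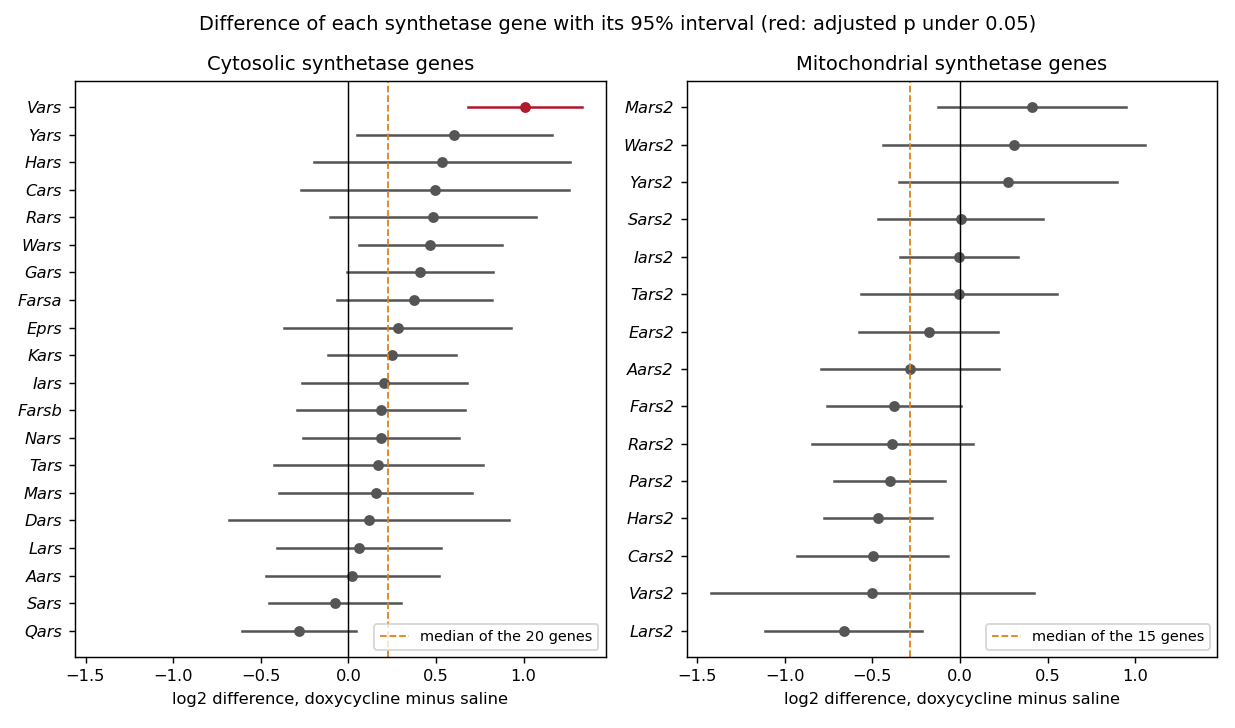
Log2 difference (doxycycline minus saline) of each of the 20 cytosolic and 15 mitochondrial synthetase genes with its 95% interval from limma. The dashed line is the median of each set (0.23 and -0.29), and the red point, Vars at 1.01, is the gene with an adjusted p under 0.05.

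Vars read 2.0, 2.32, 2.24 and 2.22 on doxycycline arrays 1 to 4, against 1.14, 1.06, 1.19 and 1.35 on saline arrays 1 to 4. Every doxycycline array lay well above every saline array, and both groups were tight. The mean was 2.19 ± 0.13 for doxycycline and 1.19 ± 0.12 for saline (SD, n = 4 each). This made Vars 2.01-fold higher (95% interval 1.61 to 2.52, log2 difference 1.01, SE 0.143, limma adjusted p = 0.00306, exact permutation p = 0.0286, the smallest that 4 against 4 arrays can give). The call held under all 19 other settings tried, with log2 differences between 0.97 and 1.07.

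Wars, the cytosolic tryptophan enzyme, is a known target of interferon gamma and was read by 2 probes whose starts lie 6121 bases apart on the minus strand. The brighter probe covers chr12:110098245-110098304 (mm9) and contains AATAAA, the letters of the polyadenylation signal, shown in capitals in a stretch of 30 of its bases at chr12:110098246-110098275. The dimmer probe at chr12:110104366-110104425 lies upstream of it in the direction of transcription. Both are shown because they gave different results. Exons are not given for these probes, since gene models of mm9 were not used here.
Wars brighter probe, stretch: ttaggaaaaaacAATAAActttgttgagct
Wars dimmer probe: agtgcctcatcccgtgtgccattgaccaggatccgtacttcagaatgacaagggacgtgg

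The dimmer Wars probe read 0.34, 1.2, 0.83 and 0.60 on doxycycline arrays 1 to 4, against 0.03, -0.23, -0.20 and -0.79 on saline arrays 1 to 4. The groups did not overlap, although doxycycline 1 and saline 1 came close. It was 2.06-fold higher with doxycycline (log2 difference 1.04, SE 0.240, limma adjusted p = 0.0249 over all kept probes, exact permutation p = 0.0286). Over the settings tried the log2 difference was 0.88 to 1.18 and the highest adjusted p 0.0713. With each array left out in turn, the call was lost without doxycycline 2, doxycycline 3, doxycycline 4 or saline 3 (log2 differences 0.89, 1.01, 1.09 and 1.08).

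The brighter Wars probe, which represents the gene, read 6.33, 6.43, 6.17 and 6.06 on doxycycline arrays 1 to 4, against 5.76, 5.50, 5.71 and 6.16 on saline arrays 1 to 4. Saline 4 reached into the doxycycline range and the other saline arrays lay below it. The log2 difference was 0.47 (SE 0.180, limma adjusted p = 0.114), so the gene did not pass on this probe. It passed in 4 of 14 settings, among them the one without saline 4, where the log2 difference was 0.60 (adjusted p = 0.0430 over all kept probes). Without saline 2 the log2 difference was 0.37 and did not pass (limma adjusted p = 0.223 over all kept probes). The difference between the probes was not tested.

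**Figure D2:**
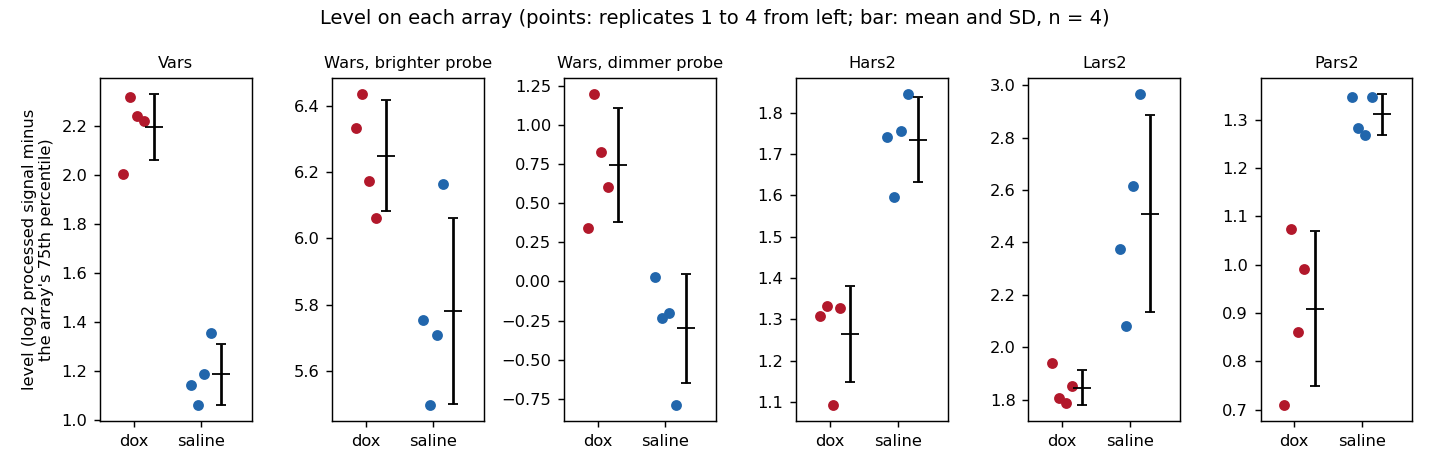
Level on each array (log2 processed signal minus the array's 75th percentile, separate axis per panel) of Vars, both Wars probes, Hars2, Lars2 and Pars2, doxycycline in red and saline in blue, with mean and SD (n = 4). The groups do not overlap for Vars, the dimmer Wars probe, Hars2, Lars2 and Pars2, and saline 4 overlaps the doxycycline arrays for the brighter Wars probe.

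The other cytosolic enzymes outside the multisynthetase complex had positive differences with one exception. Together with Vars and Wars, 11 of these 12 genes were above 0, with a median of 0.39. The 11 include Yars, whose value has no firm size or sign. Gars, which charges glycine tRNA in both compartments, read 6.64, 6.62, 6.68 and 6.60 on doxycycline arrays 1 to 4, against 6.23, 5.87, 6.13 and 6.67 on saline arrays 1 to 4. The doxycycline arrays lay close together, and saline 4 lay level with them (log2 difference 0.41, SE 0.183, limma adjusted p = 0.164). Without saline 4 the difference of Gars was 0.56 and passed (limma adjusted p = 0.0358). Without saline 2 it was 0.29 and did not pass (limma adjusted p = 0.306).

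Hars, which charges histidine tRNA, read 2.06, 2.26, 2.34 and 2.46 on doxycycline arrays 1 to 4, against 1.33, 1.06, 1.91 and 2.66 on saline arrays 1 to 4. The saline arrays spanned more than the whole doxycycline range (log2 difference 0.53, SE 0.322, limma adjusted p = 0.292). Without saline 4 the difference of Hars was 0.84 and passed (limma adjusted p = 0.0431). Without saline 2 it was 0.31 and did not pass (limma adjusted p = 0.525). Cars, for cysteine, differed by 0.49 (SE 0.337) and the phenylalanine subunit genes Farsa and Farsb by 0.38 (SE 0.195) and 0.19 (SE 0.211). The second Farsa probe gave 0.44, with every doxycycline array above every saline array (limma adjusted p = 0.132). Yars, for tyrosine, was detected above background on 4 of 4 doxycycline arrays and on 0 of 4 saline arrays. Its levels were -2.90 ± 0.31 for doxycycline and -3.50 ± 0.42 for saline (SD, n = 4 each), and no fold is given because the doxycycline mean did not exceed the saline detection limit. With normexp background its log2 difference of 0.60 turned to -0.05. Nars (asparagine), Tars (threonine) and Aars (alanine) had differences of 0.18, 0.17 and 0.02, and Sars (serine) of -0.07.

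The complex held smaller differences. Among its 8 synthetase genes, 7 were above 0 with a median of 0.18, and limma called 0 in either direction (0 at an unadjusted p under 0.05). The largest was that of Rars, for arginine (0.48, SE 0.260), which was 0.71 and passed without saline 4 (limma adjusted p = 0.0445). Without saline 2 it was 0.30 and did not pass (limma adjusted p = 0.443). Rars was followed by the double enzyme Eprs, for glutamate and proline (0.28, SE 0.287), Kars, for lysine (0.25, SE 0.161), and Iars, for isoleucine (0.21, SE 0.209). Mars (methionine), Dars (aspartate) and Lars (leucine) had differences of 0.16, 0.12 and 0.06. The difference between genes inside and outside the complex was not tested.

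Qars, which charges glutamine tRNA within the complex, went the other way. It read 4.91, 4.88, 4.66 and 4.57 on doxycycline arrays 1 to 4, against 5.16, 5.01, 5.05 and 4.93 on saline arrays 1 to 4. All doxycycline arrays lay below all saline arrays, but by a narrow gap between doxycycline 1 and saline 4. The log2 difference was -0.28 (SE 0.144, limma adjusted p = 0.215). Of the cytosolic genes, 1 had all doxycycline arrays above (Vars) and 1 all below (Qars), against 8.8% and 13.1% of all genes.

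Mitochondrial enzymes had 0 calls in limma in either direction (0 higher and 4 lower at an unadjusted p under 0.05). The genes with the smallest p were Hars2 (histidine), Lars2 (leucine), Pars2 (proline) and Cars2 (cysteine). Hars2 read 1.31, 1.33, 1.09 and 1.33 on doxycycline arrays 1 to 4, against 1.74, 1.60, 1.76 and 1.84 on saline arrays 1 to 4. The groups were apart, with doxycycline 3 the lowest array. The log2 difference was -0.47 (SE 0.137, limma adjusted p = 0.0528), just outside the threshold.

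Lars2 read 1.94, 1.81, 1.78 and 1.85 on doxycycline arrays 1 to 4, against 2.37, 2.08, 2.62 and 2.97 on saline arrays 1 to 4. The doxycycline arrays agreed closely and lay below all saline arrays, which were spread over a much wider range. The log2 difference was -0.66 (SE 0.198, 95% interval -1.11 to -0.22, limma adjusted p = 0.0558). Without saline 2 the difference of Lars2 was -0.81 and passed (limma adjusted p = 0.0267). Without saline 4 it did not pass. Over all settings tried it ran from -0.81 to -0.45, with a highest limma adjusted p of 0.139. Pars2 read 0.71, 1.08, 0.86 and 0.99 on doxycycline arrays 1 to 4, against 1.35, 1.28, 1.27 and 1.35 on saline arrays 1 to 4. Here the saline arrays were the tight group and again lay above all doxycycline arrays (log2 difference -0.40, SE 0.139, limma adjusted p = 0.0860).

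Cars2 read 0.48, 0.24, -0.03 and 0.35 on doxycycline arrays 1 to 4, against 0.90, 0.35, 0.80 and 0.99 on saline arrays 1 to 4. Saline 2 lay among the doxycycline arrays and the other saline arrays above them (log2 difference -0.50, SE 0.190, limma adjusted p = 0.112). Without saline 2 it was -0.64 and passed (limma adjusted p = 0.0488). Without saline 4 it did not pass. Over all settings tried the difference of Cars2 ran from -0.64 to -0.40, with a highest limma adjusted p of 0.259. Its second probe gave -0.36 with overlapping groups. Hars2, Lars2 and Pars2 were the mitochondrial genes with all doxycycline arrays below all saline arrays, 3 of 15, against 13.1% of all genes.

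Among the other mitochondrial genes, Fars2 (phenylalanine), Rars2 (arginine) and Aars2 (alanine) had differences of -0.38, -0.39 and -0.29. Vars2, the mitochondrial partner of Vars, had one of -0.50 with the widest error of all members (SE 0.407), and its second probe gave 0.16. Ears2 (glutamate) lay at -0.18. Iars2, Tars2 and Sars2 lay between -0.01 and 0.00, and the second probe of Iars2 gave -0.46 (SE 0.469). The second probe of Tars2 gave -0.03. The positive ones were Mars2 (methionine) at 0.41, which was well above background on 3 of 4 saline arrays, Wars2 (tryptophan) at 0.31, whose second probe was detected on 0 of 4 saline arrays, and Yars2 (tyrosine) at 0.27. Nars2 had signals of -5.07 with doxycycline and -4.74 with saline, below detection in both.

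Synthetases fall into 2 classes by the fold of their catalytic core, and Eprs joins both. The 9 other cytosolic class I genes, with Vars, Wars and Yars among them, had a median difference of 0.47, and the 10 of class II one of 0.19. The value of Yars has no firm size or sign. In the mitochondrial set the 9 class I genes had a median of -0.18 and the 6 of class II one of -0.33. These medians are given as a description and were not tested against each other.

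The intervals bound what the misses can hide given the spread among these arrays, which may be technical. For 27 of the 35 genes the 95% interval of the log2 difference lay within 1 in either direction, that is within 2-fold. The other 8 were Vars, Yars, Rars, Hars, Cars, Lars2, Vars2 and Wars2, for which a 2-fold difference lies inside the interval. These bounds hold for the probe that represents each gene. Among the 27, the dimmer Wars probe had an interval of 0.50 to 1.59. The second probes of Iars2 (-1.52 to 0.60) and Cars2 (-1.01 to 0.30) reached 2-fold as well. A p that missed the threshold does not show that levels were equal.

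Enzymes for the same amino acid could be set side by side in 16 cytosolic and mitochondrial pairs, counting Eprs with both Ears2 and Pars2 and each phenylalanine subunit with Fars2. The difference of the cytosolic gene was above that of its mitochondrial partner in 14 pairs and below it in 2. The 14 include Yars and Yars2, although the value of Yars has no firm size or sign. The widest pair was Vars and Vars2, at 1.01 and -0.50. Hars and Hars2 stood at 0.53 and -0.47, and Cars and Cars2 at 0.49 and -0.50. The pairs with the mitochondrial gene above were Mars and Mars2, at 0.16 and 0.41, and Sars and Sars2, at -0.07 and 0.00.

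**Figure D3:**
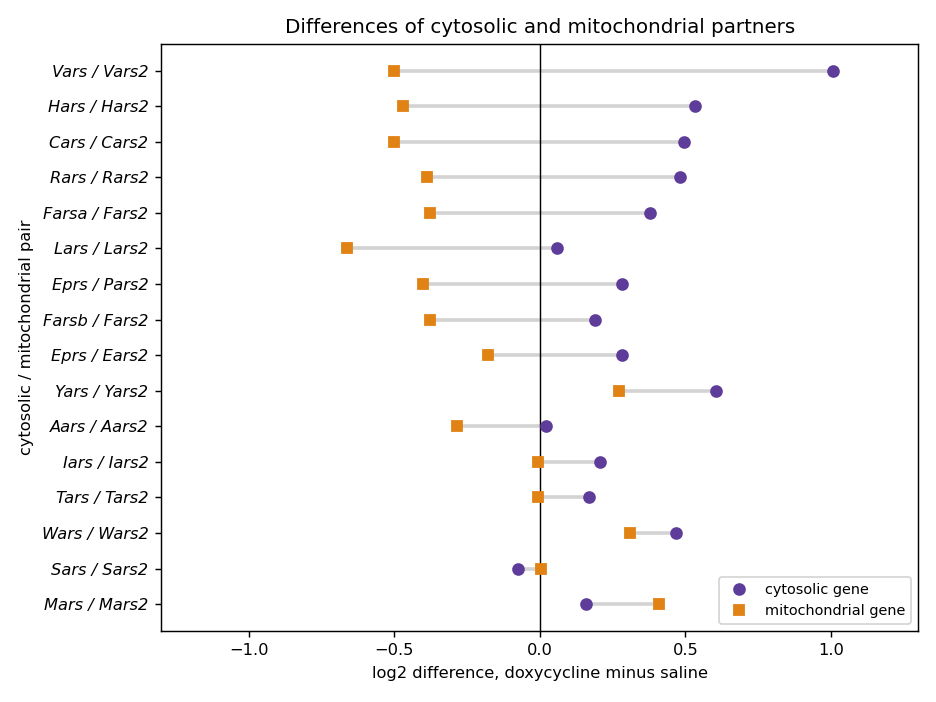
Log2 differences (doxycycline minus saline) of the cytosolic gene (circle) and the mitochondrial gene (square) in 16 pairs, ordered by the gap between them. The cytosolic gene lies to the right in 14 pairs, with the widest gap for Vars and Vars2 (1.01 against -0.50).

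Array by array, the synthetase genes shared a pattern among the saline samples. With each gene set against its own saline mean, the median over the cytosolic genes was 0.30, 0.43, 0.11 and 0.21 on doxycycline arrays 1 to 4, and -0.01, -0.38, -0.10 and 0.46 on saline arrays 1 to 4. The mitochondrial median was -0.20, -0.05, -0.32 and -0.22 on doxycycline arrays 1 to 4, and -0.02, -0.27, 0.02 and 0.37 on saline arrays 1 to 4. In both sets saline 4 was the high and saline 2 the low saline array, so the groups overlapped. Among the saline arrays, saline 4 was the highest in 32 of 35 synthetase genes, against 42.8% of all genes, and saline 2 the lowest in 30 of 35, against 34.0% of all genes. The pattern was not particular to the synthetases. On saline 2 and saline 4, list medians were -0.21 and 0.45 for tRNA modification and -0.19 and 0.39 for tRNA processing and export. They were -0.39 and 0.54 for mitochondrial elongation and release factors, and -0.26 and 0.50 for the complex scaffold. The interferon gamma list, at -0.07 and -0.12, did not share it.

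The shift shared by both compartments drops out when the medians are subtracted within an array. The cytosolic median minus the mitochondrial median was 0.50, 0.48, 0.43 and 0.43 on doxycycline arrays 1 to 4. It was 0.01, -0.11, -0.12 and 0.10 on saline arrays 1 to 4, which lie around 0 because each gene was centred on its saline mean. All 4 doxycycline arrays lay above all 4 saline arrays on this measure. The measure reuses the values behind the set medians above, with Yars among the cytosolic genes, and is not separate support. No p is given for it, because the gene lists were chosen with results of these data known.

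**Figure D4:**
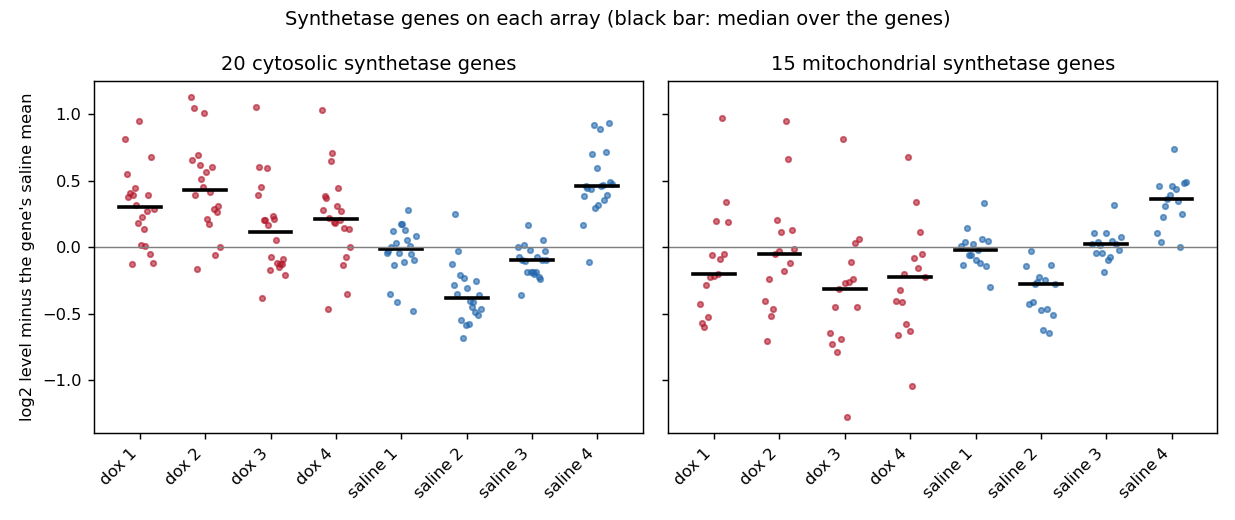
Level of each synthetase gene on each array relative to its own saline mean (log2), with the median over genes as a black bar, for 20 cytosolic (left) and 15 mitochondrial genes (right). Cytosolic medians run from 0.11 to 0.43 on doxycycline arrays and from -0.38 to 0.46 on saline arrays, where saline 2 is low and saline 4 high in both panels.

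Markers of other cells of the gut wall differed between the same arrays and between the groups. On saline 2 and saline 4 the median of 7 smooth muscle markers stood at -0.63 and 0.59, and that of 12 crypt and proliferating cell markers at -0.46 and 0.42, relative to the saline mean. The medians of ileal enterocyte (0.13 and -0.73), T cell (0.54 and -0.36) and macrophage markers (0.27 and -0.50) ran the other way. The summed signal of the smooth muscle markers, in units of the array's 75th percentile, was 490 to 679 with doxycycline and 470 to 1053 with saline. Limma called 0 of those 7 markers in either direction (0 higher and 1 lower at an unadjusted p under 0.05). All 7 goblet cell markers were tested and 6 fell with doxycycline, with summed signals of 643 to 1016 with doxycycline and 1729 to 2194 with saline. Of the 12 crypt markers 3 fell (Lgr5, Ascl2 and Olfm4) while 8 had positive differences, with a list median of 0.20. Of 7 plasma cell markers 2 fell, and of 6 neutrophil markers 3 rose. These counts stand beside 5.94% of all genes called higher and 7.9% called lower. The neutrophil markers were dim (median level -1.51), and 1 had all doxycycline arrays above all saline arrays, against 8.8% of all genes. Their summed signals overlapped, at 104 to 141 with doxycycline and 100 to 106 with saline. B cell markers had medians of 0.86, 1.81, 1.05 and 2.38 on doxycycline arrays 1 to 4, and of -0.80, 2.61, -1.04 and -1.17 on saline arrays 1 to 4. All 8 had positive differences (median 1.46), and limma called 0 (2 higher at an unadjusted p under 0.05). The part of these cells in the synthetase values was not tested.

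Few of the partners of the synthetases in the cell passed the threshold. Of the multisynthetase scaffold genes Aimp1, Aimp2 and Eef1e1, limma called 0 of 3 in either direction (0 at an unadjusted p under 0.05), with differences of 0.97 (SE 0.562), 0.06 (SE 0.155) and 0.54 (SE 0.262). Of 12 synthetase relatives and proofreading genes, 0 rose and 1 fell, beside 5.94% and 7.9% of all genes. The 1 that fell was Gatb, a subunit of the amidotransferase that completes mitochondrial glutamine tRNA, at -0.05 ± 0.21 on the doxycycline arrays and 0.85 ± 0.33 on the saline arrays (SD, n = 4 each, log2 difference -0.90, limma adjusted p = 0.0214).

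Translation factors, which work on the ribosome with the charged tRNAs or end translation, had list medians close to 0. Of 6 cytosolic elongation factor genes limma called 0 in either direction (0 at an unadjusted p under 0.05), with a median of -0.05 and a range of -0.19 to 0.17. Of 10 mitochondrial elongation and release factor genes, 0 rose and 1 fell, beside 5.94% and 7.9% of all genes. Their median was -0.07 and their range -0.82 to 0.44. The member that fell was the release factor gene Mtrf1l, at 0.52 ± 0.42 on the doxycycline arrays and 1.34 ± 0.16 on the saline arrays (SD, n = 4 each, log2 difference -0.82, limma adjusted p = 0.0397). RNA polymerase III, which transcribes tRNA genes, held 0 limma calls among 21 genes (3 higher and 0 lower at an unadjusted p under 0.05), with a median of -0.09.

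Among the genes that mature tRNAs, 4 passed the threshold as higher, 3 of them with a saline signal partly below detection. Among 21 processing and export genes, the ribonuclease P subunit genes Rpp30 (log2 difference 1.05, limma adjusted p = 0.0288) and Rpp40 (0.92, limma adjusted p = 0.0453) rose, and the list median was 0.02. They were well above background on 3 of 4 and 1 of 4 saline arrays, and the Rpp30 groups overlapped. Among 26 tRNA modification genes, the methyltransferase genes Trmt61a (0.88, limma adjusted p = 0.0346) and Trmt10a (1.26, limma adjusted p = 0.0458) rose, with a list median of 0.24. Trmt10a was well above background on 1 of 4 saline arrays. Rpp40 and Trmt10a thus entered the test through the doxycycline arrays, so the size of their differences is uncertain. The counts of 2 among 21 and 2 among 26, beside 5.94% of all genes called higher, include them and are given as a description.

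Amino acid response genes rose more often than they fell. Of 30 tested among 32 listed, 8 rose and 0 fell, beside 5.94% and 7.9% of all genes, with a median of 0.46, and their per-array medians of 0.36, 0.56, 0.56 and 0.54 on doxycycline arrays 1 to 4 lay above the -0.21 to 0.16 of the saline arrays. Psat1 and Phgdh, both for serine synthesis, rose 3.1-fold (limma adjusted p = 8.07e-04) and 3.19-fold (limma adjusted p = 0.00124). Eif4ebp1, a repressor of cap-dependent translation, rose 2.19-fold and the mitochondrial serine hydroxymethyltransferase gene Shmt2 2.30-fold. Asns, the asparagine synthetase gene that ATF4 is known to activate, lay at 0.72 (limma adjusted p = 0.0926) and Atf4 itself at 0.19 (limma adjusted p = 0.583). Among the cytosolic synthetase genes 1 of 20 rose, and the difference between the lists was not tested.

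The promoters of the synthetase genes were searched for the letters of the amino acid response element, TGATGNAA, on both strands, from 250 bases before to 50 bases after the gene start (RefSeq, GRCm38.p6). Of the 36 genes, 27 had a promoter entry. The 9 without one were Vars, Wars, Rars, Hars, Nars, Cars, Lars, Hars2 and Pars2. The letters occurred in 5 of 27 promoters (18.5%), all in cytosolic genes: 5 of 13 cytosolic and 0 of 14 mitochondrial promoters. They occurred in 4.51% of all promoters and in 6 of 25 of the amino acid response list. A stretch of each, the one nearest the gene start, is shown 5′ to 3′ along the gene's strand because these letters are what the promoters share, with the matching letters in capitals. In all but Yars the match lies on the opposite strand and reads TTNCATCA.
Aars, chr8:111033840-111033869: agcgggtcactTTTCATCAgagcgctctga
Gars, chr6:55037960-55037989: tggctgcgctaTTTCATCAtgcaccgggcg
Iars, chr13:49682126-49682155: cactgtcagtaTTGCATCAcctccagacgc
Tars, chr15:11399655-11399684: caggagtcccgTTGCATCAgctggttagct
Yars, chr4:129189895-129189924: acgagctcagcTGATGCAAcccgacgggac

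The genes with these letters had differences of 0.02 (Aars), 0.41 (Gars), 0.21 (Iars), 0.17 (Tars) and 0.60 (Yars), none past the threshold. The value of Yars has no firm size or sign, as its saline signal was not well above background. The median over all cytosolic genes was 0.23. A match is a description of the letters and does not show that a factor binds there.

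Genes that answer interferon gamma, as Wars is known to do, moved in both directions. Of 12 listed, 5 rose and 1 fell, beside 5.94% and 7.9% of all genes, with a median of 0.40. Gbp2 and Gbp3, which encode guanylate-binding proteins, rose 7.73-fold and 4.78-fold and the chemokine gene Cxcl10 13.7-fold, while Ciita, which switches on the MHC class II genes, was 4.15-fold lower (limma adjusted p = 5.57e-04). The per-array medians of the list were 0.84, 1.22, 0.41 and 0.04 on doxycycline arrays 1 to 4, and 0.05, -0.07, -0.13 and -0.12 on saline arrays 1 to 4. Doxycycline 2 was the highest array for this list and for both Wars probes. Doxycycline 1, next highest for this list, was the lowest doxycycline array on the dimmer Wars probe (0.34). Doxycycline 4, near the saline arrays for this list, was above all saline arrays on the dimmer Wars probe alone. A link between this list and Wars was not tested.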

How the data were processed

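The deposited scanner files come from Agilent Feature Extraction (version 10.7.3.1 according to the submitters' processing notes) and, per the file headers, hold spot intensity on a linear scale, background-subtracted by the authors' software. The deposited value table holds log2 values equal to the log2 processed intensity minus a constant per array, with column medians of -3.77, -3.92, -3.83 and -3.81 (doxycycline 1 to 4) and -3.97, -3.70, -3.79 and -3.86 (saline 1 to 4), and served as an alternative.

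Control spots were dropped, as were 169 to 259 outlier spots on each array, and replicate spots were averaged. Probe signals were taken as log2, reduced by each array's 75th percentile, and kept when well above background on at least 4 of 8 arrays (28626 of 55681 probes). No probe spot was saturated. The number of arrays limits the precision. The groups were tested by limma 3.58.1 (R 4.3.3, lmFit, eBayes, two-sided, Benjamini-Hochberg over 21362 genes, threshold 0.05). Second probes were adjusted over all kept probes. Permutation tests were exact and two-sided. The fit was tested on simulated data.

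The members and all lists were chosen with earlier results of these data known. Every member is accounted for, the called members and the 4 mitochondrial genes with the smallest p with all arrays, and from each pathway list up to 4 called genes with the smallest p. Other genes named, including Asns and Atf4, were chosen after their values were seen. Some items are not reported here. Cell type lists were described by counts of calls, medians or summed levels. Alternatives were other scalings, backgrounds, filters and probe rules, array weights, the replicate block, and arrays left out.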

Additional observations from a re-analysis of the deposited data

Results flagged for a closer look

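In 70 tests of 4 arrays each, over 35 genes and 2 groups, 4 arrays stood apart from the others of their group. Chance alone marks about 5% of such tests. Each is given with its gap to the nearest array as a share of the group's range. Hars2 was lowest on doxycycline 3 (0.901), at 1.09 beside 1.31 to 1.33 on the other doxycycline arrays. Kars was highest on doxycycline 2 (0.918), at 5.41 beside 5.12 to 5.15. Eprs was highest on doxycycline 4 (0.925), at 2.28 beside 2.04 to 2.06. Farsa was highest on saline 4 (0.838), at 3.14 beside 2.49 to 2.60 on the other saline arrays.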

How the results depend on the processing

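Vars rose under all 20 settings (log2 differences 0.97 to 1.07, limma adjusted p at most 0.0251). Of 1 gene higher and 0 lower in the reported setting (limma; 3 and 4 at an unadjusted p under 0.05), the higher count became 3 with normexp background (Gars, Vars, Wars), 2 with quantile normalization (Vars, Wars), 2 with the mean of a gene's probes (Vars, Wars), 5 with array weights (Gars, Vars, Wars, Yars, Mars2), 2 without saline 2 and saline 4 together (Vars, Yars), and 1 to 5 over the settings without 1 replicate, 5 being the one without saline 4. The lower count became 1 with normexp background (Hars2), 2 with quantile normalization, no filter or the filter on all 8 arrays (Hars2, Lars2 each), 2 with a common floor (Hars2, Pars2), 4 with array weights (Cars2, Hars2, Lars2, Pars2), and 0 to 2 without 1 replicate. The share of all genes called was 17.6% with normexp, 13.8% with quantile normalization, 13.6% with the mean of probes, 18.8% with the filter on all 8 arrays and 12.6% with the common floor, beside 13.8% as reported. Yars, called with array weights and without saline 2 and 4, had a saline signal that was not well above background. Array weights and the missing filter moved all genes too, to 2929 higher and 3400 lower and to 1850 and 11809 (median of all genes -0.33 with no filter). Without saline 2 and 4 all genes gave 1090 and 1027, and without 1 replicate 648 to 1541 and 729 to 1870. Over these settings the cytosolic median stayed between 0.096 and 0.42 and the mitochondrial median between -0.41 and -0.13. The cause was not tested.

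Where a sign turned, the gene was not past the threshold. With normexp background this held for Sars (0.0756), Yars (-0.0490), Iars2 (0.117), Sars2 (-0.0445) and Tars2 (0.0551), with quantile normalization Iars2 (0.0183) and Tars2 (0.0635), and with the median scaling Iars2 (0.0168) and Tars2 (0.0155). Array weights turned Iars2 (0.0660) and Wars2 (-0.0104), and leaving out saline 2 and 4 turned Iars2 (0.0521) and Wars2 (-0.0121). Without 1 replicate each, the ranges were -0.13 to 0.18 for Aars, -0.068 to 0.43 for Dars, -0.060 to 0.22 for Lars, -0.16 to 0.056 for Sars, -0.054 to 0.077 for Iars2, -0.097 to 0.17 for Sars2 and -0.18 to 0.15 for Tars2.

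The replicate numbers did not pair the arrays: deviations of same-numbered arrays correlated at 0.0060, -0.044, 0.11 and 0.013, with 1 of 4 closest to its own number. With the replicate block the synthetase counts were 1 higher (Vars) and 0 lower, all genes gave 787 and 905, and the dimmer Wars probe missed the threshold (adjusted p = 0.0575). Background limited Yars and the second Wars2 probe on the saline arrays alone, and Nars2 and the second Pars2 probe in both groups.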
